A study of Mus musculus with 15 samples.

Results

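Cathepsins and legumain were followed in the small-intestinal epithelium of mice given RANKL, the TNF-family cytokine that drives epithelial cells towards the M cell fate. The group consists of 10 genes of 19938 measured, chosen by name as members of the cathepsin family or its activating partner legumain: Ctsh, Ctsb, Ctsl, Ctss, Ctsc, Ctsz, Ctsd, Ctse, Ctsa and Lgmn. Each was read by 1 probe set of an Affymetrix array.

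The samples were epithelial cells of wild-type BALB/c mice 10 weeks of age, detached from the small intestine with EDTA. There were 5 groups of 3 arrays. The control mice received no agent, and the other groups received a GST-RANKL fusion protein intraperitoneally for 1, 2, 3 or 4 days. A group given GST or vehicle alone is not among the samples, so injection, GST and RANKL itself cannot be told apart. Whether the 3 arrays of a group represent different mice is not stated, so all p-values refer to the variation among these arrays, which may be technical. All 4 comparisons with control share the same 3 control arrays.

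Cathepsins are proteases of the endosome and lysosome. Most are papain-like cysteine proteases, while others cleave through an aspartate or a serine in the active site. They are made as inactive proenzymes, carried to acidic compartments largely by mannose 6-phosphate receptors, and activated by cleavage. The cysteine proteases among them are held in check by cystatins. In antigen-presenting cells cathepsins degrade endocytosed proteins and the invariant chain of MHC class II. M cells carry particles from the gut lumen to the lymphoid tissue beneath.

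The epithelial label was borne out by the defining genes. Epcam, an adhesion molecule of epithelial cells, read 11.63 to 11.99 on the log2 intensity scale over all arrays, and Sis, the sucrase-isomaltase of enterocytes, read 12.96 to 13.56. Other cells were present too, since Cd3e of T cells had a control mean of 9.50 and Ptprc, the pan-leukocyte gene, one of 8.25. RANKL day 1 replicate 2 stood apart from the other arrays, with an interquartile range of deposited log2 values of 1.95 against 2.26 to 2.55. In tissue preparations of this kind, more cells of a type and more RNA per cell cannot be told apart.

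Sequence upstream of the members was examined for a feature that the choice of genes did not use. Many lysosomal genes carry a CLEAR element, an E-box with the core CACGTG that is bound by TFEB and related factors. RefSeq promoter windows of assembly GRCm38.p6, from 250 bases before to 50 bases after a start site, were at hand for 7 of the 10 members, and no window was at hand for Ctsh, Ctsb and Ctse. On both strands, the core CACGTG was found for 4 of the 7 genes with a window (57.1%), against 8.09% of 27025 genes. It was also found for 25.5% of 55 other lysosomal hydrolase, membrane and pump genes. The stretches around it are shown because they are the sequence feature that several members shared, with the E-box in capitals and each read 5′ to 3′ on the strand of its gene. The stretches of Ctsa and Lgmn each belong to 1 of 2 listed start sites, and the window of the other site held none.
Ctsa, chr2:164833741-164833792, plus strand: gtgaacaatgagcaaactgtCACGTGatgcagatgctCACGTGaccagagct
Ctsd, chr7:142388047-142388077, minus strand: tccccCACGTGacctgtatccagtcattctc
Ctsd, chr7:142387900-142387945, minus strand: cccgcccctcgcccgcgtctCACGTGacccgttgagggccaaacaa
Lgmn, chr12:102439116-102439161, minus strand: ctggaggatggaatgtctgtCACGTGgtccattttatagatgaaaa
Ctsl, chr13:64370731-64370770, minus strand: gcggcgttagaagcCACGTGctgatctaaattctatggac
Ctsa and Ctsd had 2 copies each and Lgmn and Ctsl had 1. The Ets core GAGGAA, of the kind read by Spi-B and PU.1, was found for 28.6% of the 7 members, Ctss and Ctsc, against 31.3% of all genes. The NF-kB kappa B consensus was found for 28.6%, Ctsz and Lgmn, against 9.55%. A match describes these letters in this window and is not evidence of binding.

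Ctsh encodes cathepsin H, a papain-like cysteine protease that acts chiefly as an aminopeptidase. It was the 1 member of 10 called higher on each of the 4 days, at a Benjamini-Hochberg adjusted p under 0.05 by limma, and none was called lower. In controls its log2 intensity was 7.81, 7.71 and 7.75 on replicates 1 to 3. After 1 day of RANKL it read 9.84, 10.13 and 9.78. On day 2 it read 10.12, 10.13 and 10.56. Every treated array lay above every control array, and the 3 controls differed by only 0.10 between the lowest and the highest. On day 3 the values were 9.72, 9.98 and 9.92, and on day 4 they were 9.16, 10.00 and 9.38. Day 4 had the widest spread of any group, with replicate 2 above the other arrays of that day and level with day 3.

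The mean of Ctsh rose from 7.75 ± 0.05 (SD, n = 3) in controls to 9.92 ± 0.19 on day 1, a log2 difference of 2.16 ± 0.18 (SE) or 4.47-fold, with a limma adjusted p of 1.13e-05. Without RANKL day 1 replicate 2 this difference was 2.08. On day 2 the mean reached 10.27 ± 0.25, a difference of 2.52 ± 0.18 or 5.72-fold (limma adjusted p = 2.65e-06). On day 3 it was 9.87 ± 0.13, 2.12 above control or 4.34-fold (limma adjusted p = 1.89e-05). On day 4 it was 9.51 ± 0.43, 1.76 above control or 3.39-fold (limma adjusted p = 0.000181). Among all genes ranked by their difference from control, Ctsh stood at place 10 on days 1 and 2 and at place 13 on days 3 and 4. Higher calls covered 2.00% of all genes on day 1, 1.52% on day 2, 1.72% on day 3 and 0.818% on day 4, and lower calls 1.94%, 1.05%, 1.24% and 0.0903%.

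**Figure D1:**
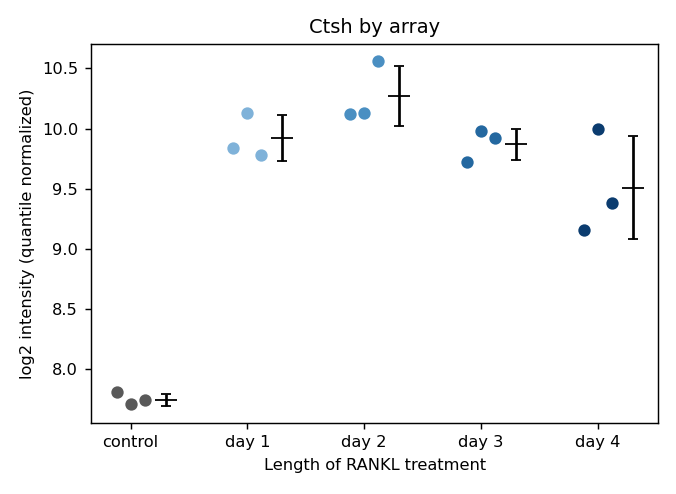
Log2 intensity of Ctsh on each of the 15 arrays by length of RANKL treatment, with the group mean and SD (n = 3) as a bar to the right of the points. The control arrays lie between 7.71 and 7.81, and the treated arrays lie between 9.16 and 10.56.

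The order of the group means was control, day 4, day 3, day 1 and day 2. Between treated groups, no difference of Ctsh was called. Day 2 exceeded day 1 by 0.35, with a 95% interval from -0.03 to 0.74 (limma adjusted p = 0.788). Day 3 lay below day 2 by a log2 difference of -0.40 (-0.78 to -0.01; limma adjusted p = 0.999). Day 4 differed from day 3 by -0.36 (-0.75 to 0.03; limma adjusted p = 0.966) and from day 1 by -0.40 (-0.79 to -0.01; limma adjusted p = 0.304). Calls of any gene were few for day 2 against day 1, at 0.201% of genes, and for day 4 against day 3, at 0.0150%. Day 4 against day 1 called 1.32% of genes. By limma, 0 genes were called for day 3 against day 2, where 961 (4.82%) had an unadjusted p under 0.05.

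The 9 other members were not called on any day in this fit. On day 1 their log2 differences from control ran from -0.60 to 0.12, with limma adjusted p of 0.135 to 0.955. Without RANKL day 1 replicate 2 they ran from -0.48 to 0.11, with limma adjusted p of 0.172 to 0.954. On day 2 they ran from -0.29 to 0.17, on day 3 from -0.28 to 0.18 and on day 4 from -0.62 to 0.37. Of these 9 genes, 3 had an unadjusted p under 0.05 on day 1 and 3 on day 4, and none did on days 2 and 3. The shares of all genes at that unadjusted level were 14.9%, 11.9%, 16.2% and 9.66% on days 1 to 4. The lower bound of the 95% interval of Ctsh was 1.77 on day 1, 2.13 on day 2, 1.73 on day 3 and 1.37 on day 4. The highest upper bound among the 9 other members was 0.31, 0.74, 0.53 and 0.74 on these days, below that of Ctsh each time. The median difference over the 10 members was -0.16, 0.00, 0.03 and 0.07, against -0.01, -0.02, -0.01 and 0.01 over all genes.

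**Figure D2:**
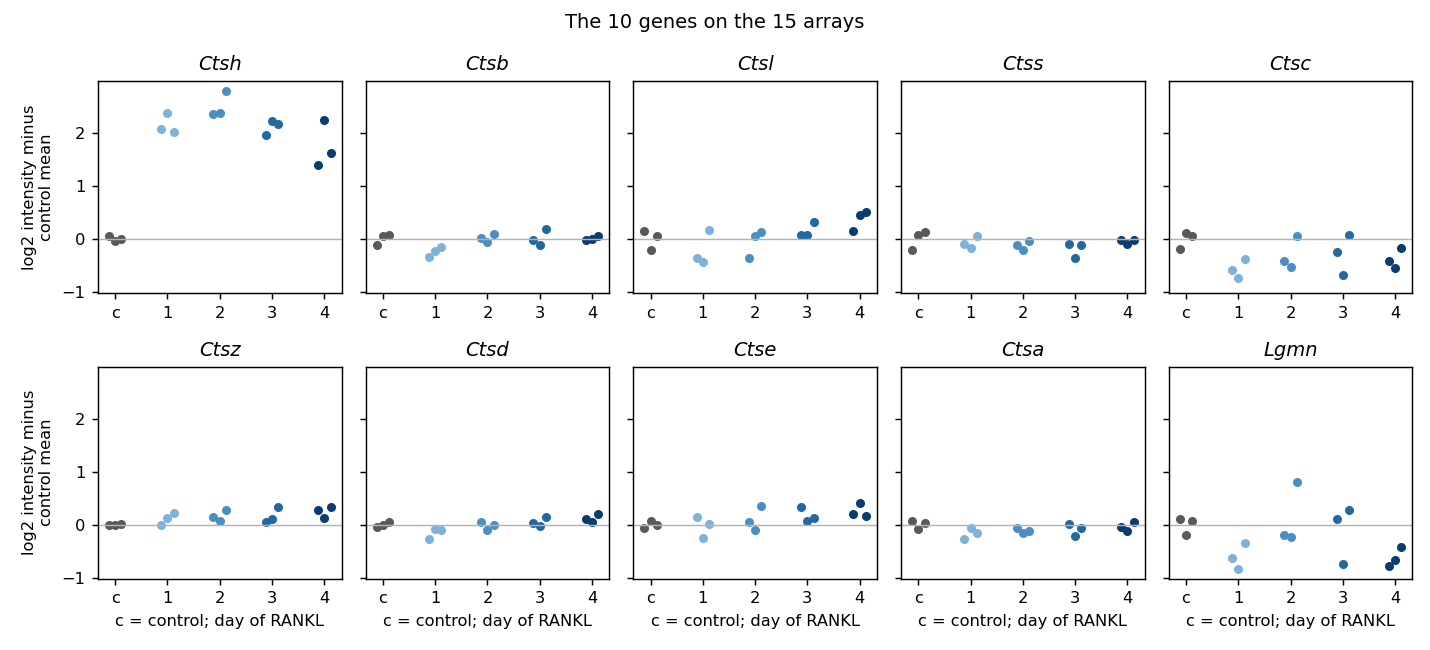
Log2 intensity of each of the 10 genes on the 15 arrays, minus the mean of that gene's controls, by group (c for control, 1 to 4 for the day of RANKL). Ctsh is the gene whose treated arrays all lie well above its controls, while Lgmn has the widest range of the other members, 1.65.

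Among the cysteine proteases, Ctsb encodes cathepsin B, an abundant lysosomal endopeptidase and dipeptidase. Its controls read 11.27, 11.45 and 11.46, and its day 1 arrays 11.05, 11.17 and 11.24. All day 1 arrays of Ctsb were below all controls, by a mean log2 difference of -0.24 ± 0.09 (limma adjusted p = 0.173). On days 2 to 4 the differences of Ctsb were 0.01, 0.02 and 0.01, with 95% intervals that stayed between -0.18 and 0.21. Ctsl, the endopeptidase cathepsin L, differed from control by -0.20, -0.05, 0.16 and 0.37 on days 1 to 4. Leaving out 1 array gave -0.39 to -0.09 on day 1, -0.15 to 0.10 on day 2 and 0.06 to 0.24 on day 3, and array weights gave 0.11 on day 1, so no sign is drawn from days 1 and 2. Its 3 day 4 arrays, at 8.58, 8.88 and 8.95, lay just at or above the controls of 8.58, 8.23 and 8.48. Day 4 of Ctsl exceeded day 1 by 0.57 ± 0.17, which was not called (limma adjusted p = 0.129).

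Ctss encodes cathepsin S, which in antigen-presenting cells cleaves the invariant chain, and its differences from control were -0.07, -0.11, -0.18 and -0.03. Its 15 arrays all lay between 9.79 and 10.27. Ctsz, the carboxypeptidase cathepsin Z, had controls of 11.33, 11.32 and 11.34. Its day 4 arrays read 11.61, 11.46 and 11.66. The arrays of Ctsz were all higher than the controls on days 2, 3 and 4, by log2 differences of 0.17, 0.17 and 0.25, and none of these was called (limma adjusted p 0.519, 0.392 and 0.345).

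Ctsc encodes cathepsin C, a dipeptidyl peptidase that activates serine proteases of the granules of leukocytes. Its controls read 10.60, 10.91 and 10.85, against 10.20, 10.05 and 10.41 on day 1. The groups did not overlap, and the log2 difference was -0.57 ± 0.19 (limma adjusted p = 0.135). Day 2 and day 3 each held a replicate 3, at 10.85 and 10.86, that was level with the controls, so those groups overlapped. The differences of Ctsc on days 2, 3 and 4 were -0.29, -0.28 and -0.37. Without 1 array they ran from -0.47 to -0.18 on day 2 and from -0.45 to -0.08 on day 3, the ends being without replicate 3 and without replicate 2 of that day. Without RANKL day 1 replicate 2 the day 1 difference was -0.48. Gene lists for leukocytes are given further on beside this value.

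**Figure D3:**
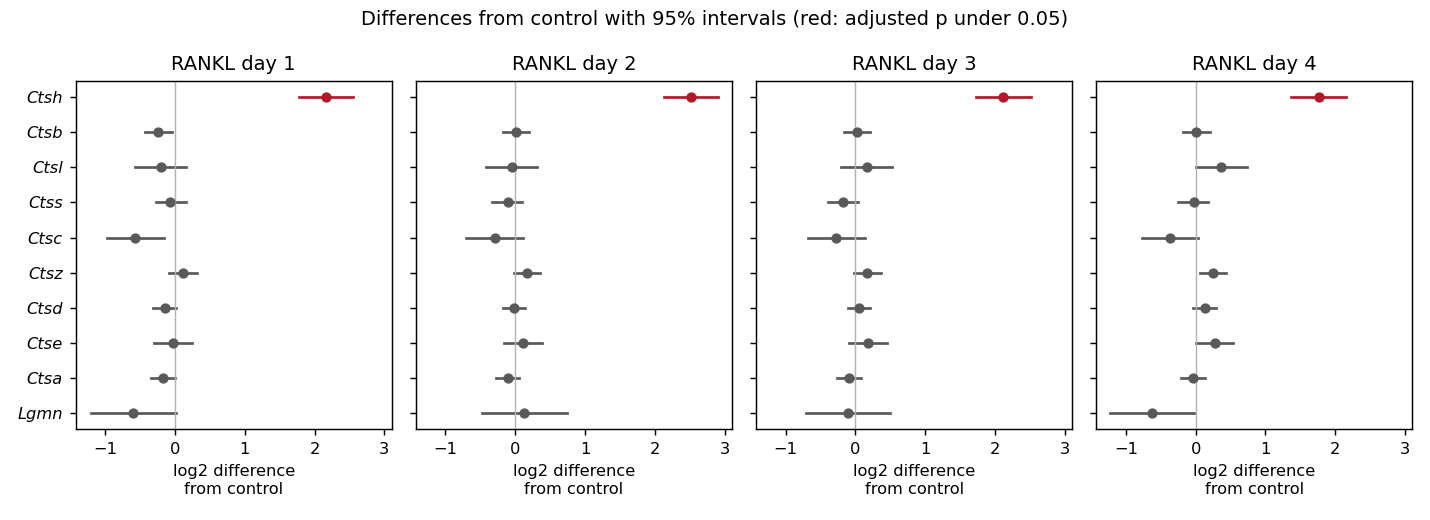
Log2 difference from control of each of the 10 genes on each day of RANKL, with the 95% interval from the limma fit (n = 3 arrays per group). The intervals of Ctsh start at 1.77, 2.13, 1.73 and 1.37, and no other gene has an interval above 0.74.

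Of the other catalytic types, Ctsd encodes the aspartic protease cathepsin D and Ctse the related cathepsin E. Ctsd differed from control by -0.14, -0.02, 0.05 and 0.13. Day 1 arrays of Ctsd (10.50, 10.69 and 10.68) were all below the controls (10.72, 10.77 and 10.82), and day 4 arrays (10.88, 10.83 and 10.98) were all above them. Neither difference was called (limma adjusted p 0.417 and 0.658), nor was that of day 4 against day 1, 0.27 ± 0.08 (limma adjusted p = 0.107). Ctse read 7.40, 7.54 and 7.46 in controls and 7.68, 7.88 and 7.64 on day 4. That difference of 0.27 ± 0.13 was not called (limma adjusted p = 0.525), although the arrays did not overlap. Ctsa, a serine carboxypeptidase that also protects other lysosomal enzymes, had the narrowest range of the 10 genes, 10.88 to 11.22, and differences from -0.17 to -0.04.

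Lgmn encodes legumain, an asparaginyl endopeptidase that cleaves proenzymes of several cathepsins. It had the widest spread within groups, with a residual SD of 0.39 against 0.08 to 0.26 for the other members. Its controls read 10.04, 9.73 and 10.01. The day 1 arrays (9.30, 9.09 and 9.59) and the day 4 arrays (9.15, 9.27 and 9.50) were all below them. Day 2 held the highest value of all, 10.74 on replicate 3, beside 9.74 and 9.69. The differences of Lgmn from control were -0.60 ± 0.28, 0.13, -0.11 and -0.62 ± 0.28, with limma adjusted p of 0.343, 0.934, 0.903 and 0.504. Single arrays set the sign on days 2 and 3, where the difference was -0.21 without RANKL day 2 replicate 3 and 0.20 without RANKL day 3 replicate 2. The day 1 difference became -0.48 when replicate 2 of that day was left out. The 95% interval of day 1 ran from -1.20 to 0.01 and that of day 4 from -1.22 to -0.02. As ratios these means were 0.661 and 0.650 of control.

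Counting arrays that did not overlap, 4 members were wholly below control on day 1 (Ctsb, Ctsc, Ctsd and Lgmn), where 8.51% of all genes were, and Ctsh alone was wholly above, against 6.08%. Those 4 are not separate observations. Their deviations within groups correlated, with a Pearson r from 0.38 (Ctsd and Lgmn) to 0.85 (Ctsc and Lgmn). On day 4, 5 members were wholly above control (Ctsh, Ctsd, Ctse, Ctsl and Ctsz), where 12.1% of all genes were, and 1 was wholly below, Lgmn, against 6.16%. On days 2 and 3, 2 members were wholly above, Ctsh and Ctsz, against 8.09% and 12.3%, and none was wholly below, against 9.44% and 9.90%. The F test over all 4 days called Ctsh (limma adjusted p = 1.39e-05) and none of the other members (limma adjusted p of 0.27 to 0.768). It called 3.60% of all genes.

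Of the other cathepsin genes of the mouse, Ctsf, Ctsk, Ctso, Ctsw and Ctsg were measured, and 0 of 5 were called on any day by limma. Ctsk encodes cathepsin K, the collagenase of osteoclasts and a well-known RANKL target in that cell. In this epithelium its differences from control were -0.08, 0.01, -0.09 and 0.17 (limma adjusted p 0.832, 0.987, 0.755 and 0.679). Ctsw, a cathepsin of cytotoxic lymphocytes, differed by -0.23, -0.25, -0.37 and -0.32, and Ctso by -0.32 on day 1 (limma adjusted p = 0.170). Of the placental cathepsins, 6 were measured and read 5.21 to 6.65, while Y chromosome genes, which mark the background in arrays where Xist read at least 11.93, read 4.88 to 5.50. All 10 members read 7.22 or more, above both. Ctsk, at 6.39 to 6.87, read about as low as Ctsr, the highest of the placental cathepsins, at 6.24 to 6.65. Ctsg, at 5.65 to 5.98, lay within 0.5 of the highest Y chromosome gene. A change of Ctsk or Ctsg would therefore be hard to see.

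Inhibitors of cathepsins were measured in 19 genes. On day 2, 1 of the 19 rose, Cst6, which encodes cystatin E/M, an inhibitor of legumain and of cathepsin L. Its mean was 9.03 ± 0.14 (SD, n = 3) in controls, 9.01 ± 0.11 on day 1 and 9.61 ± 0.03 on day 2, and then 8.94 ± 0.21 and 8.98 ± 0.10 on days 3 and 4. The day 2 arrays, 9.58 to 9.65, lay above all controls, 8.87 to 9.16, and the difference was 0.58 ± 0.11 (1.49-fold, limma adjusted p = 0.00815). On the other days no inhibitor was called. Cst3, the widely secreted cystatin C, differed by -0.21, -0.09, -0.01 and -0.03. Cstb, a cytosolic stefin, differed by 0.21, 0.03, 0.11 and 0.04. The probe sets of Csta1, Csta2, Csta3, Stfa2, Stfa3, Cst9, Cst10, Cst12 and Cst13, among others, read within 0.5 of the highest Y chromosome gene on every array, so a change of these would be hard to see.

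Genes of the rest of the lysosome were measured in lists for acid hydrolases, membrane and proton pump, sorting, and regulators. Of 36 acid hydrolases, 4 fell on day 1 and none rose, with a list median of -0.15. On day 2, 1 rose and 1 fell, and on days 3 and 4 none was called, with medians of -0.10, -0.02 and 0.05. Idua, the iduronidase, fell by 0.45 on day 1 (limma adjusted p = 0.00917; 0.136 in a fit of the compared groups alone). Hexa, a hexosaminidase subunit, fell by 0.55 (limma adjusted p = 0.0189), Fuca1, a fucosidase, by 0.46 (0.0201) and Acp2, an acid phosphatase, by 0.30 (0.0243). The call of Hexa was lost under 4 of 11 other settings and without RANKL day 1 replicate 1 (0.0687) or 2 (0.0505) or control replicate 1 (0.0549) or 3 (0.0800). That of Fuca1 was lost under 2 settings and without RANKL day 1 replicate 2 (0.0532) or control replicate 2 (0.0694) or 3 (0.0684). That of Acp2 was lost under 4 settings and without RANKL day 1 replicate 1 (0.0713) or 3 (0.0658) or control replicate 1 (0.0853) or 3 (0.0538).

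On day 2 Man2b1, an acid mannosidase, rose by 0.48 (limma adjusted p = 0.00361) and Tpp1, a tripeptidyl peptidase, fell by 0.50 (0.00952). The call of Tpp1 was lost with median centring (0.0629) and without control replicate 3 (0.0578). Of 31 membrane and proton pump genes, 1 was called, Mcoln1, a lysosomal cation channel, which fell by 0.43 on day 2 (0.0271). That call was lost after median centring (0.0722), by an unmoderated t statistic (0.0588), and on leaving out RANKL day 2 replicate 1 (0.0904), 2 (0.114) or 3 (0.0674) or control replicate 1 (0.108) or 3 (0.0912). None of the 14 sorting genes was called. Gnptab, the phosphotransferase subunit that makes the mannose 6-phosphate tag, read 0.32, 0.26, 0.40 and 0.40 above control (limma adjusted p 0.138, 0.327, 0.0706 and 0.147). None of the 6 regulators was called, and Tfeb differed by -0.11, -0.16, -0.12 and 0.11.

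**Figure D4:**
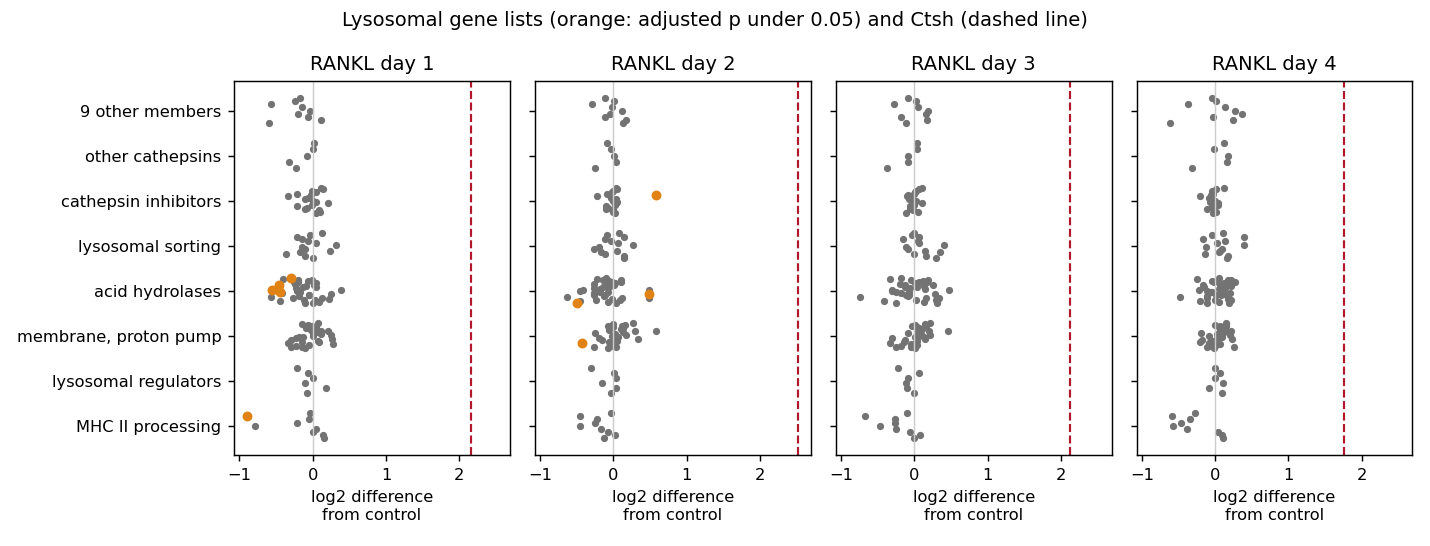
Log2 difference from control of each measured gene in 7 lists and of the 9 other members on each day of RANKL, with genes at an adjusted p under 0.05 in orange and Ctsh as the dashed line. Ctsh lies at 2.16, 2.52, 2.12 and 1.76, to the right of every gene in these lists.

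Genes of MHC class II processing were measured in 9 cases, and 1 was called, Ciita, the class II transactivator, which fell by 0.90 on day 1 (limma adjusted p = 0.0258). Its call was lost after median centring (0.0532), by an unmoderated t statistic (0.0806), and on leaving out RANKL day 1 replicate 1 (0.0503), 2 (0.0537) or 3 (0.0798) or control replicate 1 (0.104) or 2 (0.0804). Cd74, the invariant chain that cathepsins degrade, differed by -0.03, -0.04, -0.10 and -0.27 (limma adjusted p 0.935, 0.939, 0.713 and 0.355). The list medians were -0.03, -0.17, -0.25 and -0.34.

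Markers of other cells were set beside Ctsh, since macrophages and dendritic cells are rich in cathepsins. Of 19 markers of those cells, 1 was called on day 1, Csf1r, which fell by 0.36 (limma adjusted p = 0.0458), and 1 on day 2, Itgam, which rose by 0.99 (0.00418). None was called on days 3 and 4. The call of Csf1r was lost under 7 of 11 other settings and without any 1 of 11 arrays, these being all 3 of day 1 and of day 4, RANKL day 2 replicates 1 and 2, RANKL day 3 replicate 3, and control replicates 1 and 3, with adjusted p of 0.0539 to 0.225. The summed intensity of the list was 4355 to 5099 in controls, 3977 to 4375 on day 1, 4306 to 4542 on day 2, 4427 to 5557 on day 3 and 4391 to 4632 on day 4. Over the same arrays Ctsh rose 3.39-fold to 5.72-fold. Of 11 markers of T and intraepithelial lymphocytes none was called, with list medians of -0.18, -0.15, -0.10 and -0.42 and summed intensities of 6452 to 8319 in controls, 5660 to 6570 on day 1, 5650 to 7979 on day 2, 5895 to 9081 on day 3 and 4461 to 6060 on day 4. The part of macrophages, dendritic cells or lymphocytes in the values of Ctsh, Ctsc, Ctsw and Lgmn was not tested.

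Markers of M cells rose on the same days as Ctsh. Of 13 markers 10 rose on day 1, 13 on day 2, 12 on day 3 and 11 on day 4, and none fell. The list was drawn up with knowledge of RANKL-treated epithelium and is no independent evidence of direction. Its summed intensity was 7489 to 8127 in controls, then 20181 to 23593, 26678 to 29141, 21619 to 26006 and 14216 to 19040 on days 1 to 4. Spib, the Ets-family factor of M cells, stood 23.7-fold above control on day 1 and 5.49-fold on day 4. Gp2, the uptake receptor of mature M cells, differed by -0.02 on day 1, when Ctsh was already 2.16 higher. Some markers of other epithelial cells rose as well. Of 7 tuft cell markers 3 rose on day 2, 5 on day 3 and 6 on day 4, among them Trpm5 and Rgs13 on all 3 days. The summed intensity of that list was 644 to 700 in controls, 715 to 765 on day 1 and 1201 to 1419 on day 4. Of 8 enteroendocrine markers 1 rose on day 3 (Cck) and 4 on day 4 (Chgb, Cck, Gcg and Neurod1). Of 6 stem cell markers Aqp4 rose on all 4 days and Ascl2 on day 1. No tuft, enteroendocrine or stem cell marker fell. Of 12 enterocyte markers 1 rose, Apoa4 on day 2, and none fell. Of 6 Paneth cell markers 1 fell, Lyz1 on day 2, and none rose. None of 6 goblet cell markers was called on any day. The part of M cells or of these other cells in the level of Ctsh was not tested.

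The genes whose pattern was most like that of Ctsh were taken as the 5 with the highest Pearson correlation over the 15 arrays among 717 others called by the F test. They were Clca3a2 (r = 0.99, Spearman's rho = 0.90), Slco3a1 (0.98, 0.87), Clca3a1 (0.98, 0.90), Dock9 (0.97, 0.91) and Rnase1 (0.96, 0.87). Controls and treated arrays form separate clusters for all of them, so these values rest largely on that gap. Over the 12 treated arrays alone r was 0.91, 0.86, 0.87, 0.85 and 0.87. Clca3a1 and Clca3a2 are near-identical family members whose probe sets may read each other's RNA. All 5 were highest on day 2, at 2.17 for Clca3a2, 1.63 for Slco3a1, 1.79 for Clca3a1, 0.97 for Dock9 and 1.95 for Rnase1, and lowest among the treated groups on day 4. Since the 5 were picked by r over these arrays, this shared order and the r over treated arrays follow in part from that choice. The day 4 rise of Dock9, 0.67, was not called in a fit of the compared groups alone (0.0831). Of the other members, Ctsz (0.48) and Ctse (0.24) had the highest r with Ctsh over 15 arrays and Ctsa (-0.52) and Ctsc (-0.50) the lowest. Over the treated arrays these values were -0.24, -0.12, -0.36 and 0.03. These correlations are descriptions of arrays that share their groups and scaling.

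**Figure D5:**
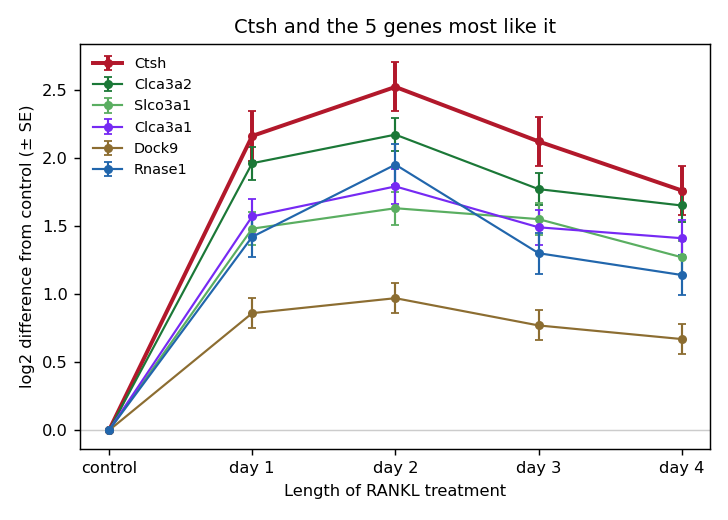
Log2 difference from control, with its SE, of Ctsh and of the 5 genes most like it by correlation over the 15 arrays, by length of RANKL treatment. Each is highest on day 2, at 2.52 for Ctsh and 0.97 to 2.17 for the others.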

How the data were processed

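The authors deposited intensities on a linear scale, covering 28853 probe sets and 15 arrays. Per the labels, targets were biotin-labelled with a WT Terminal Labeling Kit, and the submitters' processing notes name mm9. How probes were summarised and normalized is not given in the sources used here.

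Intensities were taken to log2 with an offset of 0 and quantile normalized, since the array medians on the log2 scale spanned 0.18. The platform annotation gave 1 symbol to 21789 probe sets, several to 1621, and did not list 5443. Each of 19938 genes was represented by its probe set with the highest mean. Limma 3.58.1 in R 4.3.3 fitted 1 mean per group to all 15 arrays, with no block and no filter, and two-sided p-values were adjusted over all genes within each contrast. Calls required an adjusted p under 0.05. The method was tested on simulated data. Precision is limited by 3 arrays per group. Promoter windows came from RefSeq GRCm38.p6, so no other coordinates are given.

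The members and lists were chosen with earlier results of these data known. Named were all members, the 5 genes most correlated with Ctsh, and in each pathway list the called genes, up to 4 a day, or else up to 2 with the largest differences, some of which were left out for length. Ctsk, Cst3, Cstb, Tfeb, Cd74, Spib and Gp2 were added for their known roles after their values were seen. Replicate numbers were not used as pairs, because the labels do not say that they mark a shared animal or day. Deviations of same-numbered arrays did correlate over 0.1 in 4, 6 and 9 of 10 pairs (numbers 1, 2 and 3). A fit with the number as a block is given further on.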

Additional observations from a re-analysis of the deposited data

Results flagged for a closer look

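The cystatin gene Cst6 differed between treated groups. Its level on day 2 exceeded that on day 1 by 0.60 on the log2 scale (limma adjusted p = 0.0421). This call was lost under 4 of 11 other settings and without any array of day 1 (0.0644, 0.104 and 0.135 for replicates 1 to 3), any of day 2 (0.140, 0.120 and 0.178), replicate 2 of day 3 (0.0602), replicate 1 of day 4 (0.0620) or control replicate 3 (0.0726). Its rise on day 2 against control kept its call under every setting and left-out array run.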

How the results depend on the processing

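Ctsh was called higher in all 104 recomputed comparisons with control, from 11 other settings and 15 left-out arrays on 4 days. Without 1 array its log2 difference was 2.08 to 2.23 on day 1, 2.37 to 2.59 on day 2, 2.07 to 2.19 on day 3 and 1.51 to 1.93 on day 4. Its adjusted p reached at most 0.0113, on day 4. For the 9 other members 1 of 936 recomputed comparisons was called: with the replicate number as a block, Ctsc on day 1 (-0.57, adjusted p = 0.0233), which made 2 members called. Leaving out 1 array turned the sign of 10 of their 36 differences, none over 0.13 in size. The numbers are not known to pair the mice, 12 of 15 arrays correlated best with their own number, and the block called 1052, 635, 712 and 216 genes on days 1 to 4.

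The count over all genes depended more on the settings. On day 1 it was 785, and 480 with median centring (179 higher), 1517 with array weights and 269 in a fit of the compared groups alone. On day 2 it was 513, and 311 with median centring, 930 with array weights and 320 with an ordinary t. On day 3 it was 590, and 378 without quantile normalization, 257 with median centring, 1322 with array weights and 324 with an ordinary t. On day 4 it was 181, and 307 with array weights and 107 with an ordinary t. The estimate of the array weights stopped before reaching its tolerance.

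Without 1 array the day 1 count was 445 (control replicate 3) to 1002. The day 2 count was 283 (control replicate 3), 288 (RANKL day 2 replicate 2) or 295 (RANKL day 2 replicate 1) to 717. The day 3 count was 236 (RANKL day 3 replicate 3), 270, 355 or 385 (control replicates 3, 2 and 1), 316 (RANKL day 3 replicate 2) or 1188 (RANKL day 1 replicate 2). The day 4 count was 95 (RANKL day 4 replicate 2), 96 or 120 (control replicates 2 and 1), 113 (RANKL day 4 replicate 1) or 336 (RANKL day 1 replicate 2). The cause was not tested.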

Other observations

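The genes beside Ctsh in the gene order of assembly GRCm38.p6 were looked at after its rise was known. The genes taken, the nearest 2 measured protein-coding genes on either side, are Ankrd34c, Rasgrf1, Morf4l1 and Adamts7. Their 16 log2 differences from control lay between -0.15 and 0.13, and 0 were called by limma, with adjusted p of 0.711 to 0.988 and 0 at an unadjusted p under 0.05. Ankrd34c, with group means of 5.73 to 5.80, and Rasgrf1, at 6.22 to 6.30, lay within the range of the placental cathepsins (5.21 to 6.65). A change of either gene would therefore be hard to see.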
